A study of Mus musculus with 6 samples.

Results

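Rab GTPases are small switch proteins that mark the membranes of the secretory and endocytic routes, and the transcripts of 50 of them were measured in mouse liver. The members were all genes whose single symbol in the array annotation was Rab followed by a number and at most a short letter suffix. Proteins that only bind or regulate Rabs, such as Rab3ip and Rab5if, were left out. The 50 genes were covered by 95 probe sets, among 12393 named genes and 22690 probe sets on the array. By the best-known site of the protein, 19 genes were grouped as endosomal, 20 as secretory and 11 as other. The rule for members used names only and no measured value, but rule and groups were set with earlier results of these data known.

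All mice were wild type, of the C57 background and 1 month of age, and each liver had an array of its own. In 3 mice the liver had been injected with an adenoviral vector to overexpress TFEB, a transcription factor that acts on lysosomal genes. The other 3 mice were not injected. No liver with an empty vector is among the samples, so injection, vector and TFEB cannot be told apart. The sources used here do not give the promoter of the transgene.

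A Rab protein cycles between a GTP-bound form on a membrane and a GDP-bound form that a carrier protein holds in the cytosol. Exchange factors switch it on, GTPase-activating proteins switch it off, and effectors such as tethers and motors read the active form. A lipid anchor added by a geranylgeranyl transferase lets it insert into the membrane. Rab5 acts at early endosomes, Rab7 at late endosomes and lysosomes, Rab11 in recycling, and Rab1 between the endoplasmic reticulum and the Golgi. Hepatocytes rely on these routes to secrete plasma proteins, take up ligands and carry material to the bile canaliculus.

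TFEB binds a palindromic E-box, so the start regions of the Rab genes were read for its letters. RefSeq promoters (GRCm38.p6, 250 bases before to 50 after the start) were found for 42 members, 54 promoters in all. Rab30, Rab18, Rab2a, Rab27b, Rab37, Rab38, Rab4a and Rab7b had none in this set and were not searched. CACGTG, which reads the same on both strands, occurred in 6 of the 54 promoters (11.1%), against 7.15% of all 32851 promoters and 9.11% of the 12566 promoters of measured genes. The longer CACGTGAC, which contains CACGTG and was searched on both strands, occurred in 3 of 54 (5.56%), against 2.25% and 3.43%. Counted by gene, CACGTG occurred in 6 of the 42 members (14.3%), against 10.8% of the 9887 measured genes with a promoter. The 6 genes were Rab20, Rab21, Rab24, Rab5a, Rab23 and Rab27a. The first 3 were among 13 members with a promoter that were higher in injected livers. The other 3 were among 25 that did not pass the test, and 0 of the 4 lower members held CACGTG. Promoters of the 3 members with the longer match and of Rab20 are shown, with matches as read along the printed strand in capitals. In Rab21, Rab24 and the site of Rab5a nearer the start, the letters gt just before the capitals belong to a match on the other strand. They lie at chr10:115315542-115315841 (minus strand) for Rab21, chr13:55321931-55322230 (minus) for Rab24, chr17:53478984-53479283 (plus) for Rab5a and chr8:11478591-11478890 (minus) for Rab20.
Rab21: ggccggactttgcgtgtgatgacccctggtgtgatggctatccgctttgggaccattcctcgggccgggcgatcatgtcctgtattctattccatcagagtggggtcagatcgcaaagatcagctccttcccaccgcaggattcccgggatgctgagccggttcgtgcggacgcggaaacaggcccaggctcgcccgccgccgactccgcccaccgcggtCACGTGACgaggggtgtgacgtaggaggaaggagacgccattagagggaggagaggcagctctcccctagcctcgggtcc
Rab24: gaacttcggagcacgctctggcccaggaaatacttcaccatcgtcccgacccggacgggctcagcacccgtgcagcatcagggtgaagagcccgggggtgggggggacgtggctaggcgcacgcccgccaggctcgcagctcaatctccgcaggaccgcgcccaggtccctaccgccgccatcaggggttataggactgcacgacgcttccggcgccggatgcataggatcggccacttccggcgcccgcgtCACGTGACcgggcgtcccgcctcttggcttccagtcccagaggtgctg
Rab5a: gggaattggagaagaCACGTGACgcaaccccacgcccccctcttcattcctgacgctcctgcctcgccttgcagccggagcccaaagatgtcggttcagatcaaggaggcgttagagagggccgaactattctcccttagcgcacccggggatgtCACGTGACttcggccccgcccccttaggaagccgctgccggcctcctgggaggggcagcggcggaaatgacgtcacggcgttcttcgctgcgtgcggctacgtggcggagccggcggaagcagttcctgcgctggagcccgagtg
Rab20: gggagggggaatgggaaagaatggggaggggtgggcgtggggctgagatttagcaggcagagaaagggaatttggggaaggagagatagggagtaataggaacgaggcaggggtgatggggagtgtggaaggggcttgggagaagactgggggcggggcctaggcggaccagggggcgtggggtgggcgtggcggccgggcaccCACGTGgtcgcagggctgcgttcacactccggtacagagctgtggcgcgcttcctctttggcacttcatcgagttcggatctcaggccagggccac
The capitals began 30 bases before the start in Rab21, 46 bases before it in Rab20 and at base 3 after it in Rab24. Rab5a held 2 such stretches, beginning 235 and 95 bases before the start. A match describes letters only, and binding was not measured.

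Of the 50 Rab genes, 14 were higher and 4 were lower in injected livers, and 32 did not pass. A gene passed at an adjusted p under 0.05 in limma, a linear model with variances shared across all 12393 genes. That is 36.0% of the Rab genes, where 28.1% of all genes passed. By direction, 28.0% of Rab genes were higher against 14.2% of all genes, and 8.0% were lower against 13.9%. Differences are injected minus not-injected means of log2 values. Their median was 0.01 over the Rab genes (-0.01 after centring each array or with averaged probe sets) and -0.05 over all genes. Of the called Rab genes 3 changed by at least 1.5-fold (9.6% of all genes did), and these were 3 higher (6.3%) and 0 lower (3.3%). In 24 of 50 Rab genes (48.0%) every injected liver lay on 1 side of every other liver, which is close to the 46.2% of all genes. Leaving out not-injected replicate 2 brought the higher Rab genes to 4, and leaving out not-injected replicate 3 to 5. They numbered 6 when injected replicate 1 was dropped and 7 when injected replicate 3 was. The count of lower genes was 2 without not-injected replicate 1 and 1 without any of those 4 arrays, while 15.9 to 21.8% of all genes passed in these 5 fits. Without not-injected replicate 1, 14 of 50 Rab genes passed, a larger share than the 21.8% of all genes. Without any 1 of those 4 arrays, 5 to 8 of 50 passed. In each of those fits that was a smaller share than of all genes (15.9 to 19.0%).

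**Figure D1:**
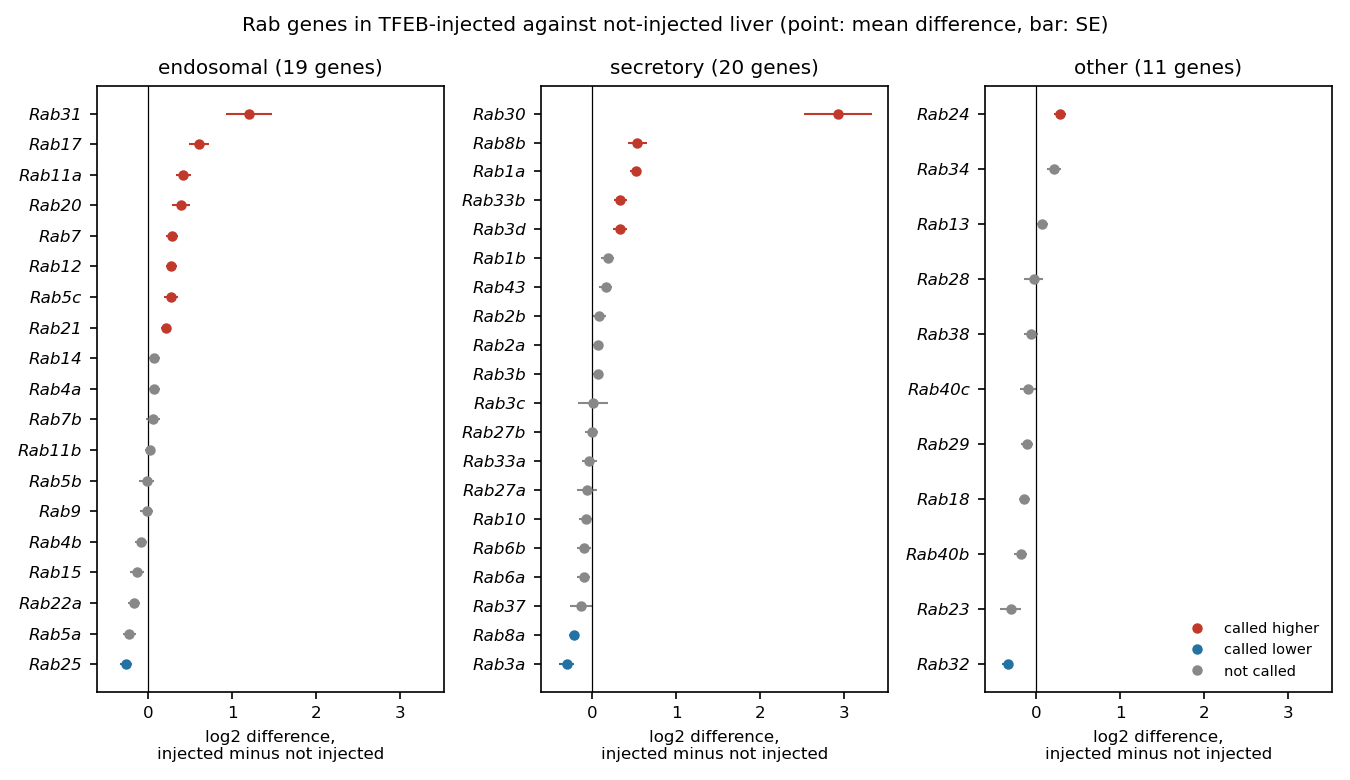
Difference of each of the 50 Rab genes (horizontal axis, log2, injected minus not injected, point with SE) in 3 panels by compartment, coloured by whether limma called the gene. Rab30 lies far to the right at 2.93 and Rab31 at 1.20, and most other genes lie between -0.34 and 0.61.

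Several facts of the whole series touch these values. Over all probe sets, pairs of arrays correlated at 0.997 to 0.998 (not injected), at 0.992 to 0.997 (injected) and at 0.975 to 0.988 across the groups. The 18 probe sets of hybridisation spike-ins, RNA added in the laboratory, had a median difference of -0.32 (range -0.49 to -0.06), and the 24 of poly-A spike-ins -0.44 (range -0.57 to -0.30). In 41 of these 42 the highest injected value was under the lowest value without injection. The labels name no batch, and a laboratory step that coincides with injection cannot be told apart from it. The tissue label was checked on hepatocyte markers (7 of 8 measured, 1 lower), which averaged 14.36 to 14.43 on the log2 scale in not-injected and 14.06 to 14.13 in injected livers. The lower one was Tat, an enzyme of tyrosine breakdown, at -1.45, while the albumin gene Alb read -0.01 and Ttr 0.02. Cps1 read -0.22, Fgb -0.21, Apoa1 -0.10 and Apoc3 -0.06, not called. The groups did not overlap in Cps1, Fgb and Apoa1, nor in Ttr. Markers of sinusoidal endothelial cells (8 of 8 measured, 5 higher) averaged 8.43 to 8.54 and 9.01 to 9.22. Those of Kupffer cells (10 of 10, 2 higher and 1 lower) averaged 9.25 to 9.64 and 9.57 to 9.77. Of all genes, 14.2% were higher and 13.9% lower. The endothelial rises were Lyve1 2.10, Stab2 0.96, Fcgr2b 0.66, Pecam1 0.41 and Clec4g 0.39. Kdr (0.22), Stab1 (0.15) and Cdh5 (0.13) were not called. The Kupffer markers did not move together. Cd68 read 1.74 and Cd5l 0.49, while Marco read -0.80, called lower, and Clec4f -0.11. The other Kupffer markers lay between 0.09 and 0.42 and were not called. The part of these cell types in the Rab values was not tested. In bulk RNA, fewer cells of a type and less RNA per cell cannot be told apart.

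The largest change was that of Rab30, a Rab of the Golgi. Rab30 read 7.76, 7.30 and 7.02 in the not-injected livers and 10.65, 9.29 and 10.91 in the injected livers. The groups did not overlap, and injected replicate 2 was the lowest of the injected livers. The rise was 7.61-fold (2.93 ± 0.40 on the log2 scale, SE, n = 3 per group, limma adjusted p = 0.00245). By signed difference, counted from the largest rise down, it ranked 43 among 12393 genes. The call held in all 14 alternative fits, with a difference of 3.42 without injected replicate 2. A single probe set measures this gene, so no second one checks it.

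Rab31, a relative of Rab5 that acts between the trans-Golgi network and endosomes, had the second largest rise. It read 7.79, 7.47 and 7.45 without injection and 9.21, 8.08 and 9.01 with it. Again the groups were apart and injected replicate 2 lay nearest to the not-injected livers. The rise was 2.3-fold (1.20 ± 0.27, limma adjusted p = 0.0168), and it was 1.54 without injected replicate 2. Without not-injected replicate 2 or 3, or injected replicate 1 or 3, the difference was 0.98 to 1.15 and did not pass (limma adjusted p 0.0511 to 0.0648), nor did it pass without variance moderation (adjusted p = 0.105). The other probe set of Rab31, near the lower quartile of the arrays, read -0.20, and the mean of both rose by 0.50.

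Rab17, an epithelial Rab of recycling endosomes known from polarised transport, was also higher. Its values were 9.62, 9.40 and 9.39 without injection and 10.01, 10.32 and 9.91 with it. Here injected replicate 2 was the highest array, unlike in Rab30 and Rab31. The rise was 1.52-fold (0.61 ± 0.12, limma adjusted p = 0.0096), and its other probe set rose by 0.48. The call was kept without any single array but not without moderation (adjusted p = 0.067).

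Rab1a, which carries vesicles from the endoplasmic reticulum to the Golgi and takes part in forming autophagosomes, varied little between mice. It read 12.14, 12.15 and 12.10 without injection and 12.66, 12.57 and 12.71 with it. Every injected liver stood above every not-injected one by far more than the spread within a group. The rise was 1.43-fold (0.51 ± 0.06, limma adjusted p = 0.00168) and was called in all 14 alternatives, and its other probe set rose by 0.32.

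Rab8b, of exocytosis towards the cell surface, read 8.24, 7.97 and 8.24 without injection and 8.89, 8.54 and 8.63 with it. The groups did not overlap, and injected replicate 2 was again the lowest injected liver. The rise was 1.45-fold (0.53 ± 0.12, limma adjusted p = 0.0135). A dim second probe set read -0.15, and with the mean of both the difference was 0.19 (adjusted p = 0.104). The call was also lost without variance moderation.

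**Figure D2:**
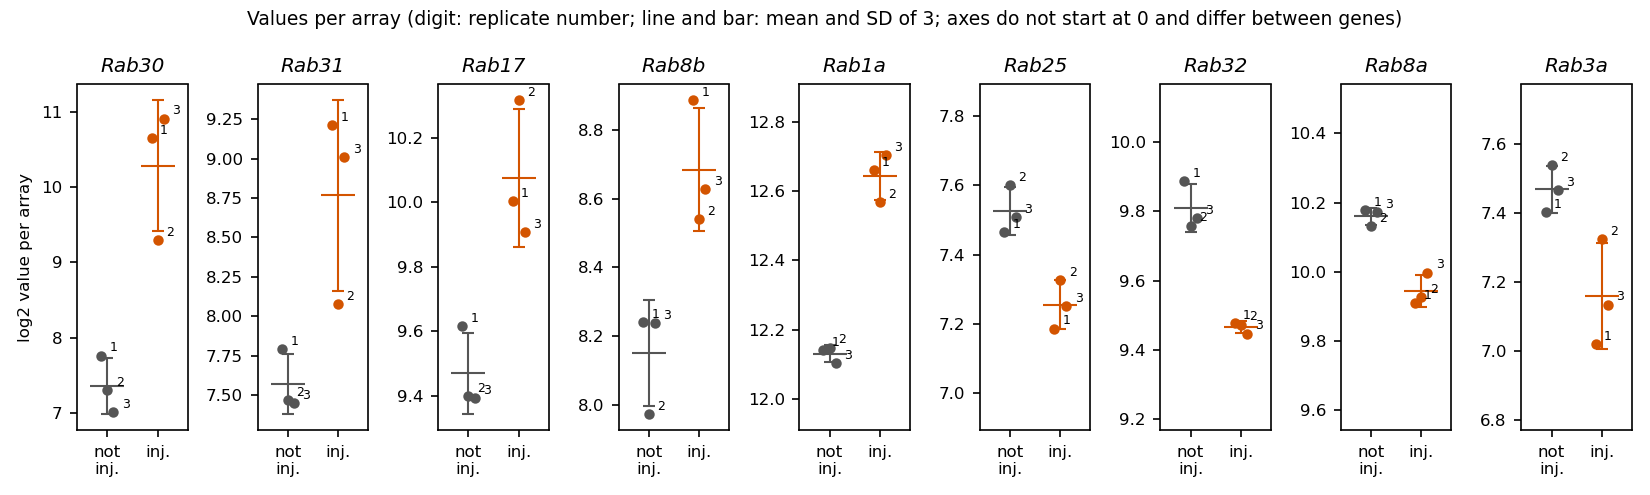
Log2 value on each array (vertical axis) for the 5 Rab genes that rose by at least 0.5 and the 4 that fell, with mean and SD of 3 livers per group and the replicate number beside each point. The groups are apart in all 9 genes, and injected replicate 2 is the lowest injected liver for Rab30 and Rab31.

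Among the 19 endosomal Rab genes, 8 were higher, 1 was lower and 10 did not pass, with a median difference of 0.07. These are 42.1% higher and 5.3% lower, against 14.2% and 13.9% of all genes. Those higher besides Rab31 and Rab17 act at several stages of the route. Rab11a of the recycling endosome rose by 0.42 ± 0.09 (limma adjusted p = 0.0149), from 11.06, 11.05 and 10.99 to 11.51, 11.26 and 11.57. Rab7, which directs late endosomes and autophagosomes to lysosomes, read 10.99, 10.96 and 10.96 without injection and 11.20, 11.20 and 11.34 with it. Its rise of 0.28 ± 0.07 (limma adjusted p = 0.0203) was modest in size but larger than the spread of either group. Second probe sets of Rab11a and Rab7 rose too, by 0.42 and 0.33. Rab20, linked to phagosomes and to expression under low oxygen, rose by 0.39 ± 0.11. Rab12, which sends transferrin receptor to lysosomes, rose by 0.27 ± 0.07, and the early endosomal Rab5c by 0.27 ± 0.08. Rab21, of integrin traffic, rose by 0.21 ± 0.06 (limma adjusted p = 0.0468), the smallest rise called, and its second probe set read -0.09. Its call was lost without any 1 of the 6 arrays (differences of 0.18 to 0.24, adjusted p 0.0541 to 0.148), and with the mean of both probe sets it read 0.06 (limma adjusted p = 0.481).

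Many of the endosomal calls depended on having all 6 livers. Without not-injected replicate 2 or 3, Rab11a (0.38 to 0.42), Rab20 (0.32 to 0.40), Rab7 (0.23 to 0.27), Rab12 (0.22 to 0.29) and Rab5c (0.23 to 0.26) kept their direction but lost the call, here with the ranges over all arrays whose omission lost it. Injected replicate 1 had that effect for Rab11a, Rab12 and Rab5c, injected replicate 3 for Rab20, Rab7, Rab12 and Rab5c, and injected replicate 2 for Rab20. The limma adjusted p-values in these fits were 0.0512 to 0.129. The count of endosomal genes higher was 8 with all livers, 1 without not-injected replicate 2 or 3, 3 without injected replicate 1 and 2 without injected replicate 3, and it was 2 without variance moderation.

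Rab25, the epithelial member of the Rab11 subfamily, was the endosomal gene that fell. It read 7.46, 7.60 and 7.51 without injection and 7.19, 7.33 and 7.25 with it, a fall of 0.27 ± 0.07 (limma adjusted p = 0.0266). The call was lost without not-injected replicate 2 or 3 or injected replicate 1 or 3, with differences of -0.28 to -0.23 (adjusted p 0.0732 to 0.0962). Of those not called, Rab5a read -0.23 (limma adjusted p = 0.0595) with groups that did not overlap, and it was called lower in 5 of 14 alternatives, among them the fit without injected replicate 2 (-0.28, limma adjusted p = 0.022). Rab22a, of early endosomes, read -0.17, but its 3 probe sets disagreed, since another one rose by 0.35. Rab14, between Golgi and endosomes, read 0.07 on its brightest probe set while the dimmest of its 6 was called lower at -0.35. The early endosomal Rab5b read -0.02, and Rab9, of transport from late endosomes to the Golgi, -0.02. Of the recycling Rabs, Rab4a read 0.07, Rab4b -0.09, Rab11b 0.02 and Rab15 -0.13. The late endosomal Rab7b read 0.06.

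In the secretory group 5 of 20 genes were higher, 2 were lower and 13 did not pass, with a median of 0.03. The shares were 25% higher and 10% lower, against 14.2% and 13.9% of all genes. Besides Rab30, Rab8b and Rab1a, Rab33b rose by 0.33 ± 0.07 (limma adjusted p = 0.0141). Rab33b is a Golgi Rab that binds the autophagy protein Atg16L1. It read 8.84, 8.68 and 8.82 without injection and 9.15, 9.04 and 9.15 with it. The groups were apart, and the call was lost without not-injected replicate 2 or injected replicate 1 (0.28 to 0.31, adjusted p 0.0521 to 0.0549). Rab3d, of regulated secretion, rose by 0.32 ± 0.08 (limma adjusted p = 0.026), and of its 3 other probe sets 1 rose by 0.41 and 2 read -0.08 and -0.16. It did not pass once any not-injected liver, or injected replicate 1, was left out (0.25 to 0.36, adjusted p 0.0577 to 0.0958), nor with the mean of its probe sets (0.12, limma adjusted p = 0.18).

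Rab3a, a regulated-exocytosis Rab best known from synapses, fell by 0.31 ± 0.09 (limma adjusted p = 0.0409). It read 7.40, 7.54 and 7.46 without injection and 7.02, 7.32 and 7.13 with it. Rab8a, of exocytosis and cilia, read 10.18, 10.13 and 10.17 without injection and 9.91, 9.93 and 10.00 with it, a fall of 0.22 ± 0.06 (limma adjusted p = 0.035). Both genes had groups that did not overlap, with small gaps. The call of Rab8a was lost without any 1 array (-0.24 to -0.20, adjusted p 0.051 to 0.111), and that of Rab3a without any but injected replicate 2 (-0.34 to -0.24, adjusted p 0.0651 to 0.131). Of the secretory group, 3 genes were higher without not-injected replicate 2 or injected replicate 1, and 0 were lower without any 1 array except injected replicate 2. In those fits 15.9 to 21.8% of all genes passed in either direction. The other secretory genes lay between -0.14 and 0.18. Rab1b read 0.18 and Rab43 0.16, both of the early secretory route, and Rab10, Rab6a and Rab6b of the Golgi read -0.08, -0.10 and -0.10. Rab2a and Rab2b, between Golgi and endoplasmic reticulum, read 0.06 and 0.07, and none of the 7 probe sets of Rab2a was called, while 1 other probe set of Rab2b was called lower (-0.36). Rab27a and Rab37, of granule release, read -0.07 and -0.14, and Rab3b 0.06. Rab37 was called lower without injected replicate 2 (-0.28, limma adjusted p = 0.037) and in no other fit. Rab3c, Rab27b and Rab33a, like Rab40b of the other group, had means under 5.46, the smallest lower quartile of any array, in both groups, and presence above background was not measured.

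Of the 11 other Rab genes, 1 was higher and 1 was lower, with a median of -0.10. Each is 9.1% of the group, under the 14.2% higher and 13.9% lower of all genes. Rab24, a Rab linked to autophagic vacuoles, rose by 0.28 ± 0.07 (limma adjusted p = 0.0214), from 9.26, 9.11 and 9.14 to 9.46, 9.41 and 9.48. The groups were apart, its second probe set read 0.11, and the call was lost without not-injected replicate 2 or 3 or injected replicate 1 or 3 (0.25 to 0.27, adjusted p 0.0672 to 0.0806). Rab32, which serves lysosome-related organelles and mitochondria, fell by 0.34 ± 0.06 (limma adjusted p = 0.0078). It read 9.89, 9.76 and 9.78 without injection and 9.48, 9.47 and 9.45 with it. The 3 injected livers lay close together, and the call held in all 14 alternatives (-0.40 to -0.30). Its partner in those organelles, Rab38, read -0.07. Rab18 of lipid droplets read -0.15 and Rab29 -0.12. Rab23, of hedgehog signalling in cilia, read -0.31, and its dimmer second probe set was called lower (-0.28). Rab34, also of cilia, read 0.20 and its second probe set 0.21. Both genes were called with the mean of their probe sets (limma adjusted p = 0.0334 and 0.0375). Rab13 of tight junctions read 0.06, Rab28 -0.03 and Rab40c -0.10. Rab40b read -0.19.

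The 4 falls in Rab3a, Rab8a, Rab25 and Rab32, of 0.22 to 0.34, lay within the range of the hybridisation spike-ins (-0.49 to -0.06). That range is wide and also held genes that were not called, such as Rab5a (-0.23) and Rab23 (-0.31). In the range of the poly-A spike-ins (-0.57 to -0.30) lay Rab3a and Rab32, but not Rab8a and Rab25. The part of a laboratory step in these falls was not tested. All 18 called Rab genes had groups that did not overlap, as did 6 of the 32 that were not called. Together these are 48.0% of the Rab genes, against 46.2% of all genes. Call and overlap rest on the same values, so neither is separate support for the other. Of the 14 higher genes, 10 had their lowest injected value in replicate 2, as did 65.6% of the 1765 higher genes of the whole array. Of the 18 called Rab genes, 13 changed by less than 0.5, from 0.21 to 0.42 in size.

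Related Rab genes did not all change alike. The change of one gene less that of its relative was taken from the difference of both within each array, in 14 pairs, with a two-sided exact permutation test whose smallest p for 3 against 3 is 0.1. The pairs were chosen with earlier results of these data known, and their values are given as a description. Where the groups were apart the exact p was 0.1 (0.127 after Benjamini-Hochberg adjustment over the pairs), so no pair could pass 0.05. Rab8b rose while Rab8a fell, and their changes differed by 0.75 (SD 0.20 injected and 0.13 not injected, n = 3). Rab3d and Rab3a likewise differed by 0.63 (SD 0.27 and 0.08). In the Rab11 subfamily Rab11a rose by 0.69 more than Rab25 (SD 0.23 and 0.08) and by 0.40 more than Rab11b (SD 0.15 and 0.03). In the Rab5 subfamily the change of Rab5c exceeded that of Rab5a by 0.50 (SD 0.19 and 0.01), whereas for Rab5c and Rab5b the groups overlapped (0.29, exact permutation p = 0.2). Rab31 exceeded its relative Rab22a by 1.37 (SD 0.63 and 0.22), Rab1a exceeded Rab1b by 0.34 (SD 0.11 and 0.10), and Rab32 lay 0.28 below Rab38 (SD 0.07 and 0.07). These values rest on the brightest probe set of each gene. With averaged probe sets Rab31 changed by 0.50, Rab22a by -0.01, Rab8b by 0.19 and Rab3d by 0.12, so those gaps are smaller. Rab11a and Rab1a each changed by 0.42 with averaged probe sets. For Rab6a and Rab6b the changes differed by -0.004 with injected arrays from -0.13 to 0.11 about the not-injected mean, and for Rab2a and Rab2b by -0.01 with a range of -0.17 to 0.09.

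**Figure D3:**
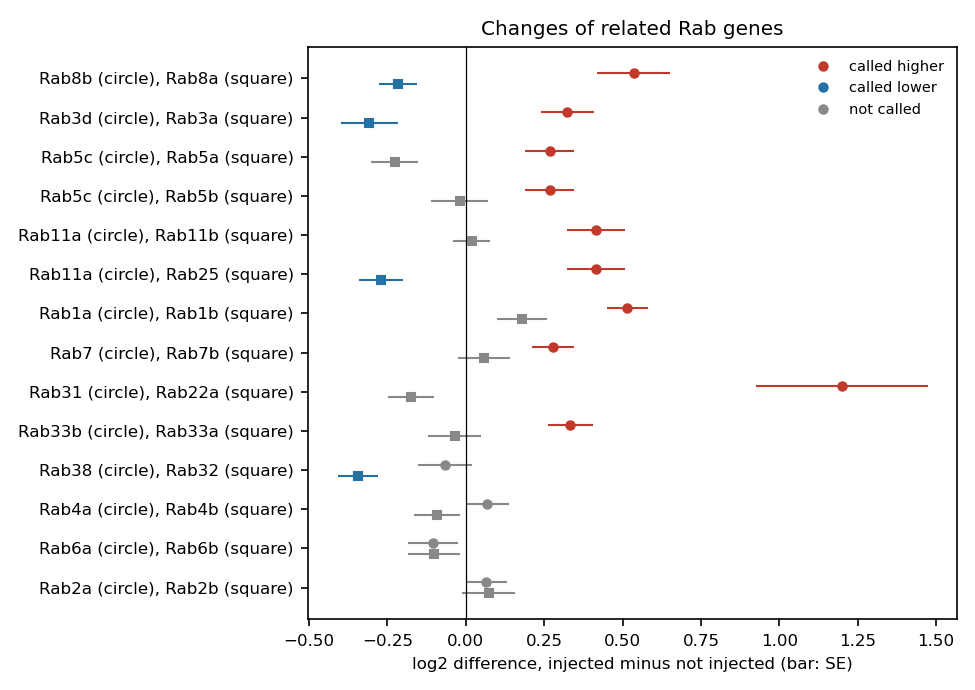
Differences (horizontal axis, log2, injected minus not injected, with SE) of 14 pairs of related Rab genes, first gene as circle and second as square, coloured by the limma call. Rab8b and Rab8a lie on opposite sides of 0, as do Rab3d and Rab3a and Rab11a and Rab25, while Rab6a and Rab6b coincide.

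Proteins that regulate or read Rabs were described from 5 lists, of which 102 of 172 genes were measured. Together 27 were higher and 5 lower (26.5% and 4.90%, against 14.2% and 13.9% of all genes), and 70 did not pass, with a median difference of 0.10. No gene list was tested as a set.

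Of the 8 measured genes for prenylation and cytosolic recycling 2 were higher (25%, all genes 14.2%) and 1 was lower (12.5%, all genes 13.9%). Rabggta, the alpha subunit of the geranylgeranyl transferase that anchors Rabs, fell 1.58-fold (-0.66 ± 0.07, limma adjusted p = 0.00104), from 9.07, 9.09 and 9.07 to 8.29, 8.48 and 8.49. Its beta subunit Rabggtb read -0.14 and the carrier Gdi2 0.06. Rabac1, which binds prenylated Rabs at the Golgi, rose by 0.51 ± 0.09, and Rabif, a chaperone of exocytic Rabs, by 0.40 ± 0.06 (0.20 with the mean of its probe sets).

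Of 29 exchange factors and their subunits 9 were higher (31.0%, all genes 14.2%) and 1 was lower (3.4%, all genes 13.9%), with a median of 0.14. Hps4 rose 3.88-fold (1.96 ± 0.12, limma adjusted p = 0.00011), from 8.31, 7.82 and 8.05 to 10.12, 9.98 and 9.96, with all 3 injected livers close together. Hps4 and Hps1 form the exchange factor BLOC-3 of Rab32 and Rab38, and Hps1 read 0.10 while Rab32 was lower. The DENN-domain gene Dennd10 rose 2.25-fold (1.17 ± 0.22), and Trappc13, a subunit of the TRAPP complexes, fell by 0.35 ± 0.08. In the linear model without variance moderation neither was called (adjusted p = 0.071 for Dennd10). The call of Trappc13 was lost without injected replicate 1 or 3 (-0.34 and -0.31, adjusted p = 0.055 and 0.0526). Among 17 TBC-domain genes, listed as GTPase activators, 5 were higher (29.4%, all genes 14.2%) and 0 lower (all genes 13.9%). Whether each of them acts on a Rab was not measured. Tbc1d24 (1.11 ± 0.21) and Tbc1d8 (0.94 ± 0.11) led the rises of this list. In the linear model without variance moderation Tbc1d24 was not called (adjusted p = 0.072). The count of higher TBC-domain genes was 3 without injected replicate 1 or not-injected replicate 2 or 3. In those fits 15.9 to 17.0% of all genes passed in either direction.

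Of 28 effectors and partners of endosomal Rabs 9 were higher (32.1%, all genes 14.2%) and 1 was lower (3.6%, all genes 13.9%), with a median of 0.09. Plin3, a lipid droplet coat protein also described as a partner of Rab9, rose 2.53-fold (1.34 ± 0.14), and Rilpl1, related to the Rab7 effector RILP, 2.02-fold (1.02 ± 0.11). Vps26a, Vps29 and Vps35, picked out after their values were seen, form the cargo core of retromer, which Rab7 recruits to endosomes. Vps26a rose by 0.89 ± 0.10, Vps29 by 0.85 ± 0.08 and Vps35 by 0.43 ± 0.06 (limma adjusted p = 0.001, 0.000629 and 0.00285). With the mean of the probe sets of each gene Rilpl1 rose by 0.52 and Vps29 by 0.47, both still called, and Vps35 read 0.21 (limma adjusted p = 0.109). Eea1, the early endosome tether that Rab5 binds, fell by 0.37 ± 0.07 (limma adjusted p = 0.00902).

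Of 20 effectors of secretory Rabs 2 were higher and 2 lower, with a median of 0.11. Each is 10% of the list, under the 14.2% higher and 13.9% lower of all genes. Myo5a, the myosin motor that Rab27a links to melanosomes, read 5.58, 5.55 and 4.90 without injection and 9.50, 6.59 and 9.61 with it. Injected replicate 2 stood well below the other injected livers, and the not-injected mean lay under 5.46, the smallest lower quartile of any array, so the fold is not exact. The difference was 3.23 ± 0.74 (limma adjusted p = 0.0173), 4.22 without injected replicate 2, and not called without not-injected replicate 2 or 3 or injected replicate 1 or 3 (2.71 to 3.33, adjusted p 0.0539 to 0.0637). In the linear model without variance moderation Myo5a was not called either (adjusted p = 0.11). The count of higher genes in this list was 6 without injected replicate 2 and 1 without injected replicate 3 or not-injected replicate 2 or 3. Over all genes, 35.3% passed in either direction without injected replicate 2, and 15.9 to 19.0% in the latter fits. Sytl4, the Rab27 effector granuphilin, rose 2-fold (1.00 ± 0.09), and by 0.44 with the mean of its probe sets, still called. Uso1, the Rab1 effector p115, fell by 0.51 ± 0.09 while Rab1a was higher, and the Rab27 effector Sytl1 fell by 0.47 ± 0.09.

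**Figure D4:**
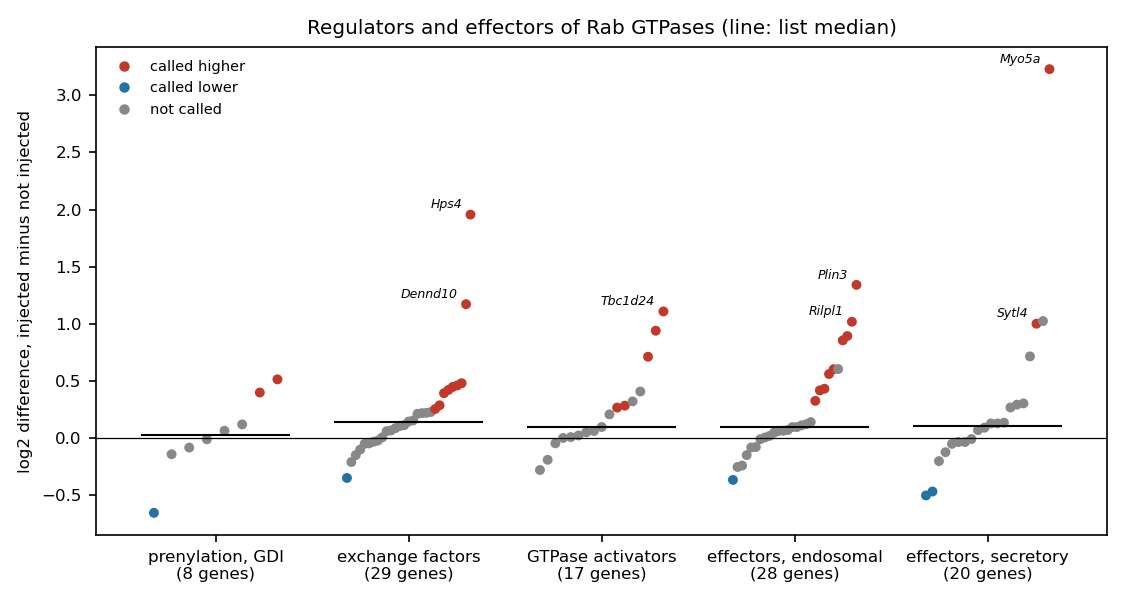
Differences (vertical axis, log2, injected minus not injected) of 102 regulators and effectors of Rabs in 5 lists (horizontal axis), each point a gene coloured by its limma call, with the median of each list as a line. Myo5a at 3.23, Hps4 at 1.96 and Plin3 at 1.34 stand highest, and Rabggta at -0.66 lowest.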

How the data were processed

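Total RNA of 6 livers was turned into biotinylated cRNA and hybridised to Affymetrix mouse expression arrays, per the labels' protocols. The authors deposited log2 values per probe set. The submitters' processing notes name affy and RMA, with no version, and filters are not given in the sources used here. RMA equalises arrays, which hides a common shift of all genes, and it compresses low values. No detection calls were used, and the number of arrays limits precision.

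Of 22690 probe sets 64 were controls, 20380 had 1 gene symbol, 691 several and 1555 none. Each of the 12393 genes was represented by the brightest of its probe sets, by the mean of the 6 arrays. The RefSeq table of GRCm38.p6 held 12369 of them by identifier, and 0 symbols changed. Groups were compared with limma 3.58.1 (R 4.3.3, lmFit and eBayes, no covariate), two-sided, with Benjamini-Hochberg adjustment over all genes, and called under 0.05. On simulated arrays of 12393 genes 200 were changed, and 49% of those changed by 0.5 and 88% of those changed by 1 were found. In the real arrays 3486 genes were called, so the simulated shares do not give the sensitivity here. All Rab genes were members. Each array's value is given for called members that changed by at least 0.5 and for some others. From each regulator list up to 2 called rises and 2 called falls with the largest differences were named. Members, lists, pairs and rules were chosen with earlier results of these data known. The alternatives were a replicate block, no moderation or an intensity trend, only the brighter genes (mean level at least the median), averaged probe sets, a second quantile normalisation, median centring, array weights and leaving out each array. Motifs, pairs and plots were made in Python 3.11.15. Promoters are from RefSeq. The labels call the arrays biological replicates.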

Additional observations from a re-analysis of the deposited data

How the results depend on the processing

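Rab30, Rab1a and Rab32 kept direction and call in all 14 alternative fits, and no Rab gene or named regulator called with all arrays or in an alternative differed in sign between them. Leaving out 1 array gave 4 to 12 higher and 1 to 5 lower Rab genes, 1973 to 4378 called genes of the whole array, 24 to 41 called regulators and effectors, and a Rab median of 0.01 to 0.04. Without variance moderation there were 6 higher and 2 lower Rab genes and 1881 called genes in all. Rab11a, Rab12, Rab17, Rab20, Rab25, Rab31, Rab3a, Rab3d, Rab5c and Rab8b lost their call in that fit. The median of the Rab genes, 0.01 with all arrays, was -0.01 with the mean of probe sets and after centring, so its sign is not settled. With the replicate block, 12 Rab genes were higher and 3 lower, and Rab20, Rab21 and Rab8a lost their call. The deviations of same-numbered arrays correlated at 0.14, 0.06 and 0.01, so the numbers were not taken as pairs. Array weights gave 14 higher and 6 lower Rab genes and 4707 called genes, with injected replicate 2 weighted lowest at 0.396. Low signal limits Rab3c, Rab27b, Rab33a and Rab40b.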
